A study of Homo sapiens with 16 samples.

Results

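The estrogen receptor coactivators and corepressors described here are 9 genes, NRIP1, NCOA1, NCOA2, NCOA3, NCOA7, NCOR1, EP300, CREBBP and MED1, out of 26364 genes counted in each cell line. They are a list of names with no threshold on a measured value, although they were chosen with earlier results of these data known. All 9 passed the filter on low counts in both lines. Ishikawa cells, a line from an endometrial adenocarcinoma, and T-47D cells, a line from a breast carcinoma, were moved to hormone-deprived medium (no phenol red, serum stripped with charcoal and dextran) and then received 10 nM 17beta-estradiol (E2) for 0 h (vehicle), 2 h, 4 h or 8 h. Poly(A) RNA was sequenced from 2 replicates in each of the 8 groups of cell line and time, which gave 16 libraries. Each tissue is represented by a single cancer line, so cell line and tissue cannot be told apart. The comparisons ask whether E2 changed the transcripts of its own receptor's cofactors, when it did so, and whether the change differed between the lines.

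Estrogen receptor alpha is a nuclear receptor that, once E2 is bound, folds its ligand-binding domain into a shape that docks short LXXLL helices of coactivators. The p160 coactivators NCOA1 (SRC-1), NCOA2 (SRC-2) and NCOA3 (SRC-3, AIB1) bind through such helices and bring in the histone acetyltransferases EP300 (p300) and CREBBP (CBP), while MED1 links the receptor to the Mediator complex and RNA polymerase II. NRIP1 (RIP140) also carries LXXLL motifs and binds the E2-bound receptor, but it recruits deacetylases and C-terminal binding proteins and mostly represses. NCOR1 is a scaffold for histone deacetylase HDAC3 at receptors that lack an agonist. NCOA7 (ERAP140) is a receptor-binding coactivator outside the p160 family.

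Library totals were 41177912 to 58918642 counts in Ishikawa cells and 41223813 to 64148903 in T-47D cells. Levels are given as CPM (the count divided by the scaled size of its library and multiplied by 1000000), the change as a log2 fold change against 0 h with its standard error (SE), and p-values from edgeR's quasi-likelihood test, adjusted over all genes tested. A change was called when the adjusted p was under 0.05. The labels do not say whether replicates came from separate cultures, so p-values measure the spread between these libraries, which may be technical. The epithelial markers EPCAM, CDH1, KRT8, KRT18 and KRT19 were present in both lines, the luminal markers GATA3, FOXA1, TRPS1 and SPDEF mainly in T-47D and the endometrial markers PAX8, EMX2 and HOXA11 in Ishikawa cells. PAX8 averaged 235 CPM in Ishikawa and 0.0169 CPM in T-47D cells, GATA3 averaged 0.0419 and 1145 CPM, and the leukocyte markers PTPRC and CD3E and the endothelial marker PECAM1 were under 0.1 CPM in each. VWF, also endothelial, was at 7.11 CPM in Ishikawa and 0.126 CPM in T-47D cells, and the fibroblast markers COL1A1 and COL3A1 were at 205 and 5.17 CPM in Ishikawa and at 83.4 and 0.602 CPM in T-47D cells. GREB1 and PGR, standard E2 targets, rose in both lines by 8 h (log2 fold changes of 1.65 and 3.75 in Ishikawa, 2.15 and 1.09 in T-47D cells). ESR1, the gene of the receptor, fell by 0.45 on the log2 scale in Ishikawa and rose by 0.29 in T-47D cells at 8 h. In Ishikawa cells the 4 h and 8 h libraries were poorly separated by their labels: replicate 2 of 4 h differed less from replicate 1 of 8 h (root mean square log2 difference 0.388) than from its own replicate (0.442), and 8 h against 4 h called 2 genes with edgeR (554 at an unadjusted p under 0.05), compared with 533 genes in T-47D cells. Distances in Ishikawa cells crossed the 2 h label as well, although PGR kept 2 h apart from the later times. PGR was at 6.5 and 6.05 CPM at 2 h, 14.8 and 14.2 CPM at 4 h and 13.3 and 17.9 CPM at 8 h. By distance, 4 h replicate 2 was closer to 2 h replicate 2 (0.414) than to its own replicate. Likewise, 8 h replicate 1 was closer to 2 h replicate 2 (0.397) than to its own replicate (0.406). Some T-47D libraries were also closer across labels, 2 h replicate 1 to 4 h replicate 1 (0.382) than to its own replicate (0.403), and 8 h replicate 2 to 4 h replicate 1 (0.387) than to its own (0.390). These pairs include the deepest library of each line, and the effect of depth on the distances was not tested. Because so few genes separated 4 h from 8 h in Ishikawa cells, their late changes against 0 h are also given with the 4 h and 8 h libraries as 1 group. The differences between the lines were not fitted in this way.

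NRIP1 was the member that changed most, and it rose in both lines at all time points. In hg19 it lies at chr21:16333556-16438257 on the minus strand, and it is shown first with its sequence because its 5′ end holds a perfect copy of the palindrome that the receptor dimer binds, GGTCA and TGACC with any 3 bases between them. The match is at chr21:16437962-16437974, 289 bp downstream of the most upstream RefSeq start and 647 bp and 1057 bp upstream of the other starts, in an intron of 3 of 7 annotated transcripts and in an exon of none. The surrounding 300 bases, chr21:16437818-16438117 on the minus strand, read as follows, with the arms of the palindrome in capitals.
NRIP1: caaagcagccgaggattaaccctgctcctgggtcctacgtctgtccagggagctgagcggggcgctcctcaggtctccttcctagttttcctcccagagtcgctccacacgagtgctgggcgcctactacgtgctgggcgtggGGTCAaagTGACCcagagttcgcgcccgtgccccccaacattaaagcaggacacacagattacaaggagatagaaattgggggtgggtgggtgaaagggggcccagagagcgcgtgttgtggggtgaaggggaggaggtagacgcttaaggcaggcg
Such a match lies within 1 kb of the 5′ end in 26 of 15403 tested genes with a position (0.169%). This share was worked out after the NRIP1 match had been found and is a description only. Within 50 kb on each side, 8.87% of the tested genes with a position hold such a match, and among the 9 coregulators only NRIP1 and EP300 do. The EP300 copy sits 28.9 kb downstream of its 5′ end. It is shown on the plus strand with 6 more bases on each side, chr22:41517513-41517537 in all, and the arms in capitals.
EP300: ttttttGGTCAcagTGACCaaaagt
The palindrome reads the same on both strands, so each place was counted once. Of the RefSeq promoter windows (250 bases before to 50 after a start, GRCh38.p14), 16 belonged to 8 of the 9 genes, and none held it, compared with 0.057% of 35116 windows. With so small a share, finding none in 16 windows says nothing particular about these genes. These are matches of letters, and binding was not measured in the counts.

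The untreated Ishikawa libraries held 45.0 and 39.9 CPM of NRIP1. After 2 h they held 87.8 and 88.8 CPM, after 4 h 81.3 and 88.1 CPM, and after 8 h 97.7 and 91.8 CPM. Every treated library was above both 0 h libraries, and the lowest of them stood well clear of the highest untreated one. The log2 fold change was 1.07 (SE 0.07, adjusted p = 9.05e-08 by edgeR) at 2 h, 1.01 (SE 0.07, adjusted p = 1.59e-07) at 4 h and 1.16 (SE 0.07, adjusted p = 2.75e-08) at 8 h. A rise of 2.09-fold, with a 95% interval of 1.89 to 2.33, was thus reached at 2 h. With the 4 h and 8 h libraries as 1 group the log2 fold change was 1.08 (SE 0.07). In bulk RNA, a change in every cell and a change in some of the cells cannot be told apart.

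T-47D cells started higher and rose less. NRIP1 was at 60.3 and 53.1 CPM at 0 h, 99.7 and 105 CPM at 2 h, 87.0 and 82.9 CPM at 4 h and 89.0 and 94.1 CPM at 8 h, again with no overlap between treated and untreated libraries. The highest level came at 2 h, where the log2 fold change was 0.84 (SE 0.06, adjusted p = 1.58e-08). It was 0.58 (SE 0.06, adjusted p = 1.29e-06) at 4 h and 0.69 (SE 0.06, adjusted p = 9.42e-08) at 8 h. The 3 comparisons of a line share its 0 h libraries and are not independent of each other.

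**Figure D1:**
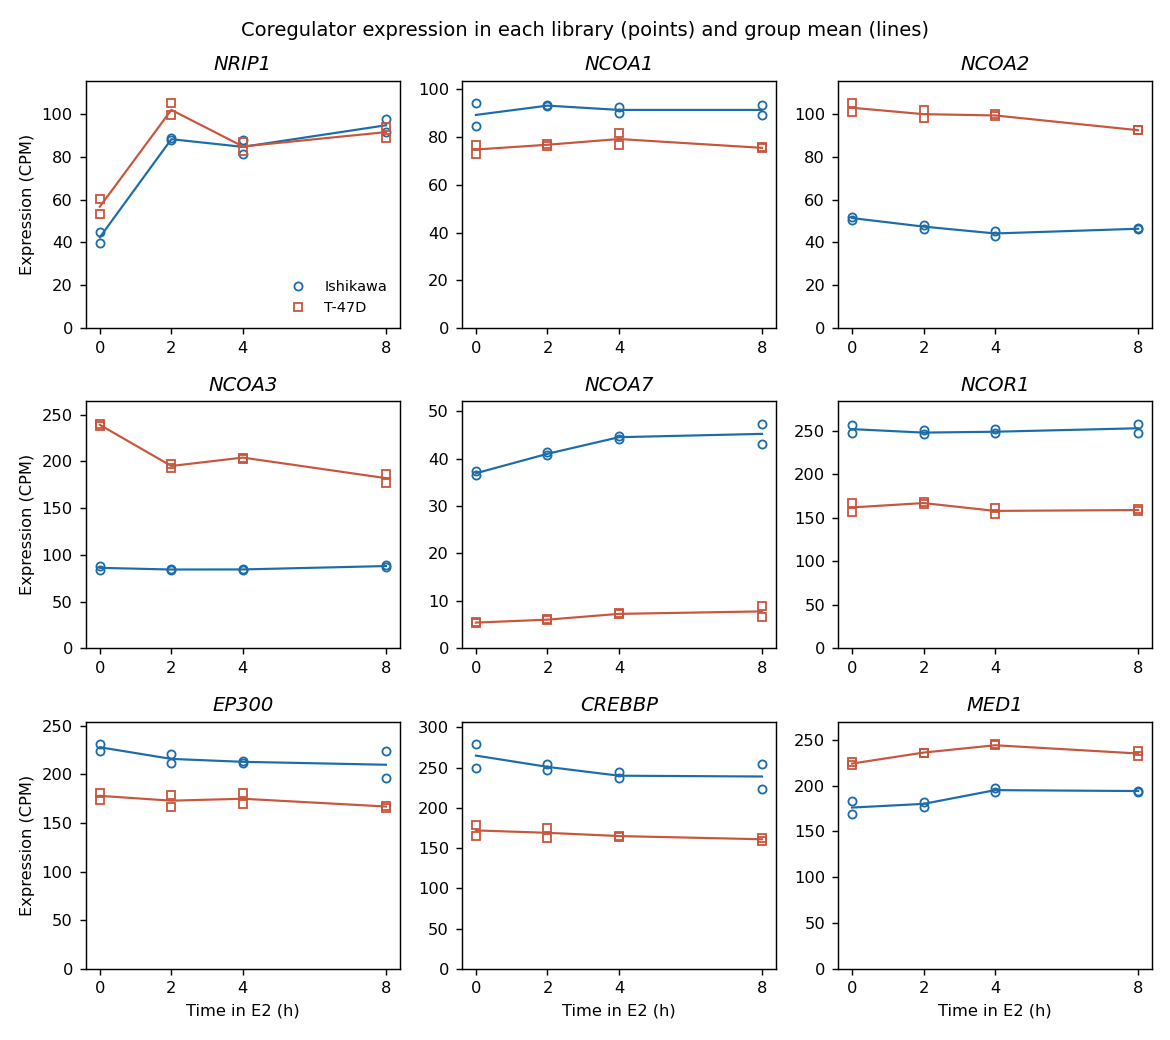
CPM (y axis, from 0, a scale per gene) of the 9 coregulators against time in E2 (h). Circles are Ishikawa and squares T-47D libraries, 2 per time point, and lines join group means. NRIP1 rose in both lines, from means of 42.4 and 56.7 CPM at 0 h to 94.8 and 91.6 CPM at 8 h, and NCOA3 fell in T-47D cells, from 239 to 182 CPM.

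The smaller rise of NRIP1 in T-47D cells was tested as the difference between the lines' log2 fold changes over all 16 libraries. At 8 h the difference (T-47D minus Ishikawa) was -0.47 (SE 0.10, adjusted p = 0.00323). At 4 h it was -0.41 (SE 0.10, adjusted p = 0.0126), a call that was lost without Ishikawa 0 h replicate 2, T-47D 0 h replicate 1 or T-47D 4 h replicate 2 (highest adjusted p 0.0995). At 2 h it was -0.21 (95% interval -0.41 to 0.00, adjusted p = 0.465) and was not called. At 0 h T-47D cells held more NRIP1, with a log2 difference of 0.42 (SE 0.07, adjusted p = 1.82e-05), whereas at 4 h and at 8 h the CPM values of the lines overlapped.

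The genes whose pattern was most like that of NRIP1 were TGFA, a ligand of the EGF receptor (Pearson r = 0.977), SDE2 (r = 0.966) and GAS6-AS2 (r = 0.962). The measure was the correlation of log2 CPM over the 16 libraries after each gene was centred within each line, among 11901 genes compared. The points share 2 cell lines and 4 time points, so r is a description only. TGFA averaged 155 CPM at 0 h and 570 CPM at 8 h in Ishikawa cells, and 12.8 and 26.5 CPM in T-47D cells. The log2 fold changes of SDE2 were smaller, at 0.37 in Ishikawa and 0.20 in T-47D cells at 8 h. GAS6-AS2 was near the floor, with means of 0.402 CPM at 0 h and 1.55 CPM at 8 h in Ishikawa cells. In T-47D cells its means were 3.01 and 6.35 CPM.

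Among the p160 coactivators, NCOA3 fell in T-47D cells and showed no call in Ishikawa cells. NCOA3 lies at chr20:46130631-46285621 in hg19. In T-47D cells it was at 240 and 238 CPM at 0 h, 193 and 197 CPM at 2 h, 204 and 203 CPM at 4 h and 177 and 186 CPM at 8 h. All 6 treated libraries were below both untreated libraries, and replicates were close together. The log2 fold change was -0.30 (SE 0.04, adjusted p = 7.04e-05) at 2 h, -0.24 (SE 0.04, adjusted p = 0.000504) at 4 h and -0.40 (SE 0.04, adjusted p = 1.3e-06) at 8 h. The transcript was thus at 0.76 of its 0 h level at 8 h, with a 95% interval of 0.715 to 0.809.

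The Ishikawa libraries held 88.5 and 83.7 CPM of NCOA3 before E2 and 87.1 and 89.0 CPM after 8 h, and all 8 libraries lay between 83.7 and 89.0 CPM. The log2 fold changes were -0.02, -0.02 and 0.03 at 2 h, 4 h and 8 h, with 95% intervals that together ran from -0.15 to 0.15. The difference between the lines was -0.43 at 8 h (SE 0.07, adjusted p = 0.000212). At 2 h it was -0.27 (SE 0.07, adjusted p = 0.0348), which was not called with a replicate block (adjusted p = 0.0561) or without any one of 8 of the 16 libraries (highest adjusted p 0.175). These are both 0 h and both 2 h replicates of T-47D cells, T-47D 4 h replicate 2, both 2 h replicates of Ishikawa cells and Ishikawa 0 h replicate 2. At 4 h it was -0.20 (SE 0.07, adjusted p = 0.0883), which DESeq2 (-0.24, adjusted p = 0.00876) and RLE scaling (adjusted p = 0.037) did call. NCOA3 overlaps SULF2 on the opposite strand, and whether the counting used strand is not given in the sources used here.

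NCOA2 showed small decreases. In Ishikawa cells it was at 52.1 and 50.7 CPM at 0 h, 46.5 and 48.3 CPM at 2 h, 45.3 and 43.1 CPM at 4 h and 46.6 and 46.2 CPM at 8 h, so every treated library was lower than both at 0 h. Only the 4 h change was called (-0.21, SE 0.06, adjusted p = 0.0403), and that call was lost without any one of 7 of the 8 libraries (all but 8 h replicate 2, adjusted p up to 0.167), with a replicate block (0.0593) and with only the time points compared (0.112). With 4 h and 8 h as 1 group it was -0.18 (SE 0.05, adjusted p = 0.0236). In T-47D cells, where NCOA2 was at 101 and 105 CPM at 0 h and 92.4 and 92.5 CPM at 8 h, the 8 h change was -0.16 (SE 0.05, adjusted p = 0.0173). This call was lost without T-47D 0 h replicate 2 or 8 h replicate 2 (adjusted p up to 0.161), with only the time points compared (0.0531) and with 4 h and 8 h as 1 group (-0.11, adjusted p = 0.131).

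NCOA1, the remaining p160 gene, was not called at any time. It lay between 84.6 and 94.1 CPM in Ishikawa and between 72.8 and 81.9 CPM in T-47D libraries. Its log2 fold changes ran from 0.01 to 0.08 over the 6 comparisons, and the 95% intervals reached no further than -0.10 and 0.20. With the Ishikawa 4 h and 8 h libraries as 1 group, NCOA1 was at 0.04 (SE 0.05) and not called.

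**Figure D2:**
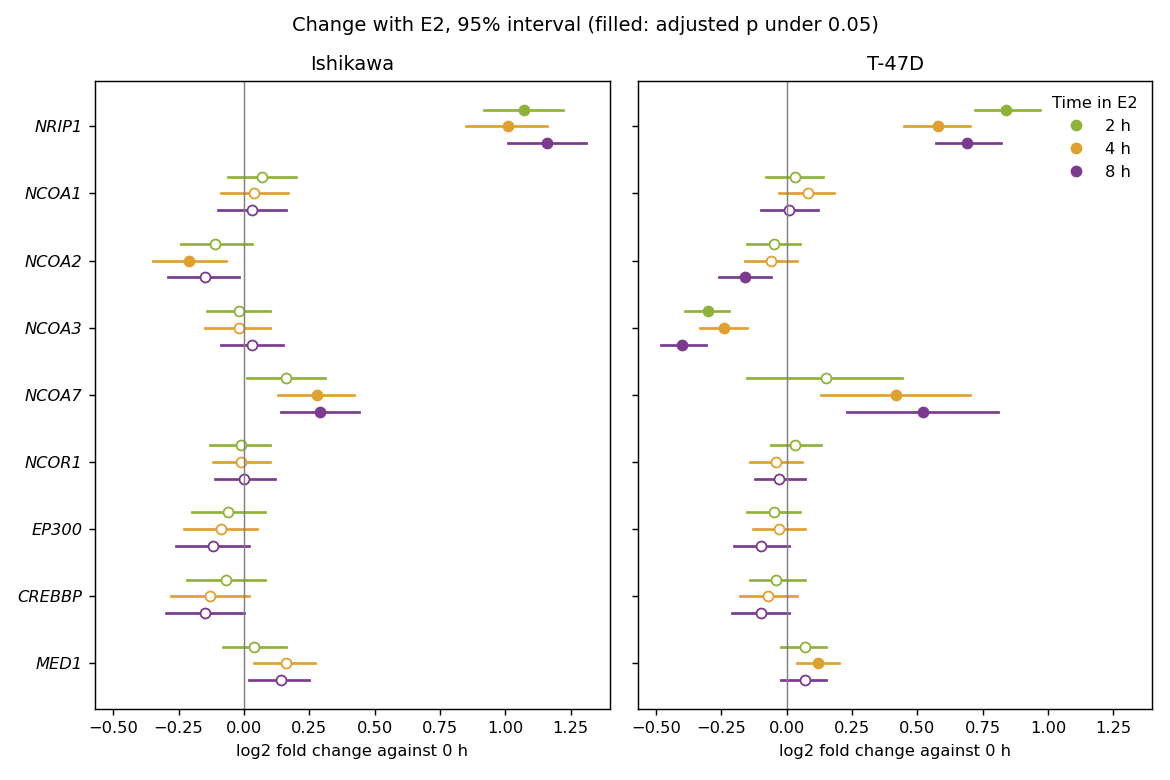
Log2 fold change against 0 h (x axis) of each coregulator at 2 h, 4 h and 8 h of E2, in Ishikawa (left) and T-47D cells (right). Bars are 95% intervals from the edgeR fit and filled points passed an adjusted p of 0.05. NRIP1 stands apart on the right in both lines, and NCOA3 lies left of 0 in T-47D cells, at -0.30, -0.24 and -0.40.

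Levels of different genes were compared per kb of exon (CPM per kb). The p160 transcripts together came to 46.7 and 47.4 CPM per kb in T-47D cells at 0 h and to 38.7 and 39.8 CPM per kb at 8 h, whereas in Ishikawa cells they came to 26.2 and 24.4 CPM per kb at 0 h and 25.4 and 25.1 CPM per kb at 8 h. NCOA3 made up 61.0% and 59.8% of the p160 total in T-47D cells at 0 h and, after 8 h of E2, 54.4% and 55.7%. In Ishikawa cells its share was 40.1% and 40.7% at 0 h and 40.8% and 42.0% at 8 h, close to that of NCOA1.

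The ratio of NCOA3, a coactivator, to NRIP1, mostly a corepressor, was lower in every treated library than in both untreated libraries of its line. Per kb it was 1.98 and 2.12 in the Ishikawa 0 h libraries and between 0.90 and 1.04 in the 6 treated ones. In T-47D cells it was 4.01 and 4.54 at 0 h and between 1.89 and 2.48 after E2. The ratio was thus higher in each T-47D library than in its Ishikawa counterpart of the same time, and the treated T-47D libraries covered the untreated Ishikawa values. In Ishikawa cells the numerator showed no call. These ratios follow from the values above and were not tested on their own.

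**Figure D3:**
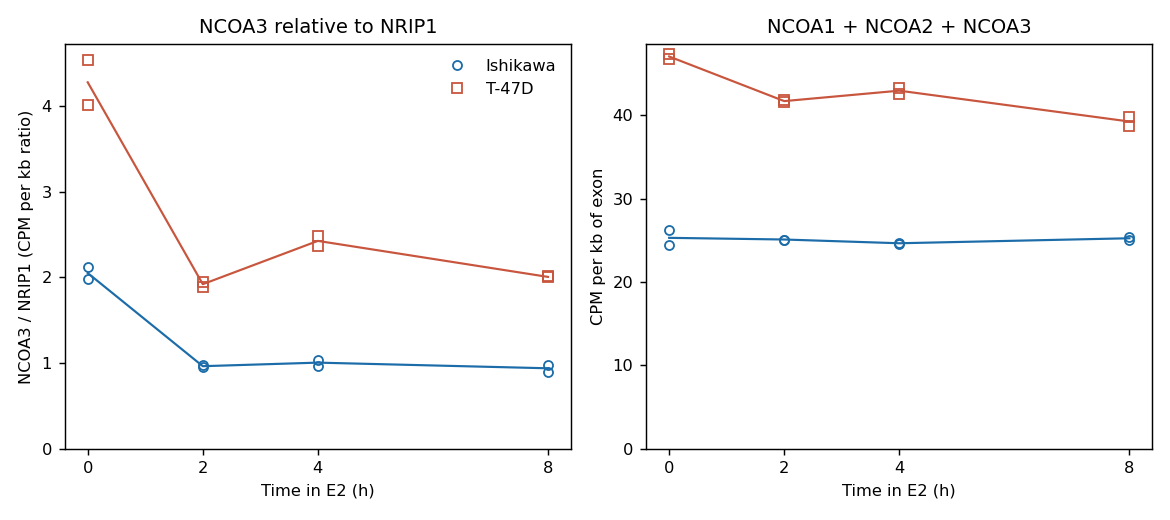
Left, the ratio of NCOA3 to NRIP1 (both in CPM per kb of exon) and, right, the summed level of NCOA1, NCOA2 and NCOA3 (CPM per kb) against time in E2 (h). Points are libraries and lines join group means. T-47D cells started at a ratio of 4.01 and 4.54 and ended, after 8 h, at 2.01 and 2.00, and Ishikawa cells started at 1.98 and 2.12 and ended at 0.90 and 0.978.

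NCOA7 rose in both lines from very different levels and was called at 4 h and 8 h. Whether it was higher then than at 2 h was not tested. In Ishikawa cells it was at 37.4 and 36.5 CPM at 0 h, 40.7 and 41.3 CPM at 2 h, 44.8 and 44.2 CPM at 4 h and 47.3 and 43.0 CPM at 8 h, with every treated library above both at 0 h. The log2 fold change was 0.16 at 2 h (SE 0.07, adjusted p = 0.242), 0.28 at 4 h (SE 0.07, adjusted p = 0.0139) and 0.29 at 8 h (SE 0.07, adjusted p = 0.00743). The 8 h call was lost without 8 h replicate 1 (adjusted p = 0.0872), and the 4 h call without 0 h replicate 2 or either 4 h replicate (up to 0.0911) and with only the time points compared (0.0504). With 4 h and 8 h as 1 group it was 0.28 (SE 0.06, adjusted p = 0.00215).

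In T-47D cells NCOA7 was near the low end, at 5.47 and 5.39 CPM at 0 h, 5.93 and 6.16 CPM at 2 h, 7.41 and 7.14 CPM at 4 h and 6.66 and 8.92 CPM at 8 h. It rests there on 218 to 464 counts per library. The log2 fold change was 0.15 at 2 h (SE 0.14, adjusted p = 0.598), where both libraries were above both at 0 h. It was 0.42 at 4 h (SE 0.14, adjusted p = 0.0384) and 0.52 at 8 h (SE 0.14, adjusted p = 0.00791). The 4 h and 8 h calls could each be lost by leaving out 1 library, although the 4 h value then stayed between 0.39 and 0.45. The 8 h value was 0.30 (adjusted p = 0.159) without 8 h replicate 2, and the 4 h call was lost without either replicate of 0 h or 4 h (up to 0.163) and with DESeq2 (0.0514). The difference between the lines was not called at any time, with a 95% interval of -0.08 to 0.53 at 8 h. An antisense gene, NCOA7-AS1, overlaps NCOA7.

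MED1, at chr17:37560538-37607525 in hg19, moved up slightly. In T-47D cells it was at 222 and 226 CPM at 0 h, 236 and 235 CPM at 2 h, 245 and 244 CPM at 4 h and 232 and 238 CPM at 8 h, and no treated library overlapped the untreated ones. The 4 h change was called (0.12, SE 0.04, adjusted p = 0.0405), but not without any one of the 0 h, 2 h and 4 h libraries (up to 0.182) nor with 4 h and 8 h as 1 group (0.107). In Ishikawa cells MED1 was at 183 and 169 CPM at 0 h and 177 and 182 CPM at 2 h, which overlapped (log2 fold change 0.04, adjusted p = 0.785). It was at 197 and 193 CPM at 4 h and 194 and 193 CPM at 8 h, with log2 fold changes of 0.16 (adjusted p = 0.0747) and 0.14 (adjusted p = 0.0954). With these late libraries as 1 group it was 0.15 (SE 0.05) and passed, at an adjusted p of 0.0309, as it did without 0 h replicate 1 at 4 h (0.21, adjusted p = 0.0183) and 8 h (0.19, adjusted p = 0.0205) and with DESeq2 at 4 h (0.0486).

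The acetyltransferases EP300 and CREBBP and the corepressor NCOR1 were not called in either line. EP300 lay between 196 and 231 CPM in Ishikawa and between 165 and 181 CPM in T-47D libraries, with log2 fold changes from -0.12 to -0.03. In Ishikawa cells every treated EP300 library was below both at 0 h (224 and 231 CPM). The 8 h replicates were split, at 196 and 224 CPM, and the higher was only just below. In T-47D cells the EP300 libraries of 2 h and 4 h overlapped those of 0 h. CREBBP lay between 223 and 279 CPM and between 159 and 179 CPM, with log2 fold changes from -0.15 to -0.04. Both extremes of CREBBP in Ishikawa cells came from groups whose replicates differed widely, 250 and 279 CPM at 0 h and 223 and 255 CPM at 8 h. For both acetyltransferases the 95% intervals allowed a fall of no more than 0.30 on the log2 scale. With the Ishikawa 4 h and 8 h libraries as 1 group, neither was called by edgeR. CREBBP was then at -0.14 (SE 0.06, adjusted p = 0.0953) and EP300 at -0.10 (SE 0.05, adjusted p = 0.175). At 8 h in Ishikawa cells, CREBBP passed without 0 h replicate 1 (-0.23, adjusted p = 0.0441), without 8 h replicate 2 (-0.26, adjusted p = 0.0345) and with no filter on low counts (-0.16, adjusted p = 0.0446). EP300 passed there without 8 h replicate 2 (-0.23, adjusted p = 0.0364).

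NCOR1 moved little. It lay between 246 and 258 CPM in all 8 Ishikawa libraries and between 155 and 168 CPM in the T-47D libraries. Its log2 fold changes ran from -0.04 to 0.03, and every 95% interval lay between -0.14 and 0.13. PIGL and TTC19 overlap NCOR1 on the opposite strand, and EP300-AS1 overlaps EP300.

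The calls were also counted over the 9 genes. In Ishikawa cells 1 of 9 was called at 2 h (NRIP1, up), while 4.35% of all tested genes were called, 2.61% up and 1.74% down. At 4 h 3 of 9 were called (NRIP1 and NCOA7 up, NCOA2 down), beside 14.3% of all genes, 7.66% up and 6.6% down. At 8 h 2 of 9 were called (NRIP1 and NCOA7, up), beside 22.1%, 12% up and 10.1% down. In T-47D cells 2 of 9 were called at 2 h (NRIP1 up, NCOA3 down), beside 9.3% of all genes, 4.9% up and 4.4% down. At 4 h 4 of 9 were called (NRIP1, NCOA7 and MED1 up, NCOA3 down), beside 21.5%, 11.1% up and 10.4% down. At 8 h 4 of 9 were called (NRIP1 and NCOA7 up, NCOA2 and NCOA3 down), beside 29.7%, 15.4% up and 14.3% down. With so few genes, nothing is read from these counts beyond the genes they name. The median log2 fold change of the 9 lay between -0.03 and 0.03 in the 6 comparisons and that of all genes between -0.01 and 0.00.

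The difference between the lines was called for 1 of 9 genes at 2 h (NCOA3), 1 of 9 at 4 h (NRIP1) and 2 of 9 at 8 h (both), beside 2.67%, 6.03% and 10% of 17090 genes. At 4 h the split of all called differences into higher and lower in T-47D cells was 548 to 483, but 441 to 611 with RLE scaling and 532 to 755 with DESeq2. At 8 h it was 909 to 803, and 863 to 1178 with DESeq2. Both called genes kept their negative sign, but these scalings moved the split toward lower in T-47D cells, so the kept sign is no test of them.

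Before E2 the lines differed in all 9 genes, at a threshold that 81.9% of all genes passed. The largest difference was in NCOA7, at 5.43 ± 0.0556 CPM (SD, n = 2) in T-47D and 36.9 ± 0.621 CPM in Ishikawa cells (log2 difference -2.76, SE 0.11, adjusted p = 1.61e-15 by edgeR). NCOA3 went the other way, with 239 ± 0.94 CPM in T-47D and 86.1 ± 3.37 CPM in Ishikawa cells (1.47, SE 0.05, adjusted p = 1.22e-16), as did NCOA2 at 103 ± 3.11 and 51.4 ± 1.02 CPM (1.00, SE 0.05, adjusted p = 2.33e-13). NRIP1 and MED1 were also higher in T-47D cells, by 0.42 and 0.35 on the log2 scale. NCOR1 (-0.64), CREBBP (-0.62), EP300 (-0.36) and NCOA1 (-0.26) were lower there. Each of these calls held in all 21 alternative fits. For all genes the median size of the difference was 0.94.

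Per kb of exon, the order at 0 h was not the same in the lines. In T-47D cells NCOA3 led with 28.4 ± 0.112 CPM per kb (SD, n = 2), ahead of MED1 (26 ± 0.315), EP300 (15.2 ± 0.434) and then CREBBP, NCOR1 and NCOA2 at 11.1, 10.4 and 10.3, whose libraries overlapped from 1 to the next. NCOA1 (8.33), NRIP1 (6.67) and NCOA7 (0.711) followed, each apart from its neighbour. In Ishikawa cells MED1 (20.4 ± 1.21) and EP300 (19.5 ± 0.44) overlapped at the top, CREBBP (17.1) and NCOR1 (16.1) overlapped below them, NCOA3 (10.2) and NCOA1 (9.95) overlapped in the middle, and NCOA2 (5.14), NRIP1 (5.00) and NCOA7 (4.83) overlapped at the bottom. Dividing by the longest transcript put EP300, CREBBP and NCOR1 ahead of MED1 in Ishikawa cells, at 25.9, 24.5, 22.8 and 21.6 CPM per kb, NCOA1 (12.1) ahead of NCOA3 (10.8), and NCOA7 (5.89) ahead of NRIP1 (5.48), and left the T-47D order as it was. NCOA3 was above 88.9% of tested genes in T-47D and above 71.5% in Ishikawa cells, and NCOA7 above 22.5% and 52.4%.

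**Figure D4:**
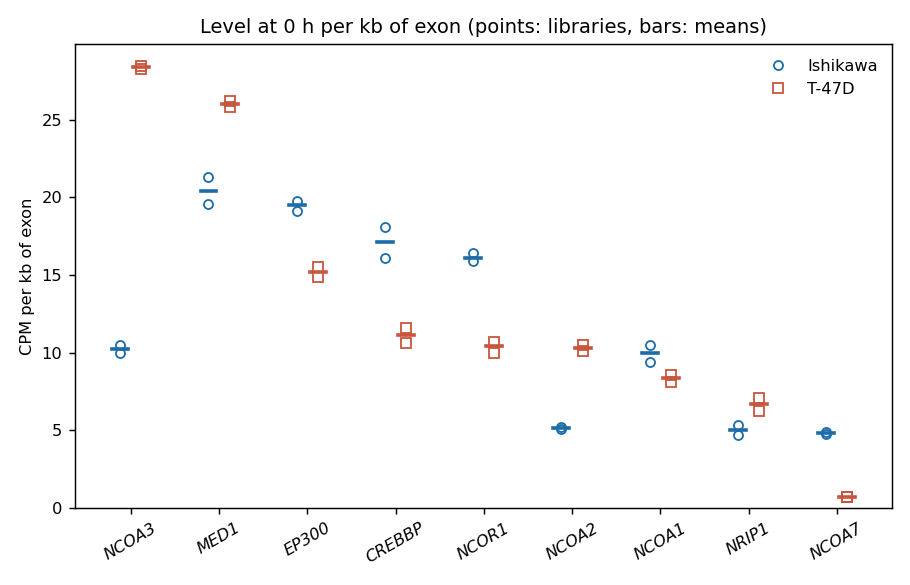
Level at 0 h (CPM per kb of exon, y axis from 0) of the 9 coregulators, ordered by their level in T-47D cells. Circles are Ishikawa and squares T-47D libraries, and bars are means of 2. NCOA3 led in T-47D cells at 28.4 CPM per kb against 10.2 in Ishikawa cells, and NCOA7 was last in T-47D cells at 0.711, while in Ishikawa cells it overlapped NRIP1 at the bottom (4.83 and 5.00).

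Lists of further coregulators place these changes among other cofactors of the receptor. Of 17 other coactivators, 2 rose and 1 fell at 2 h in Ishikawa cells, 2 and 1 at 4 h, and 2 and 2 at 8 h. These are 17.6%, 17.6% and 23.5% of the list, beside 4.35%, 14.3% and 22.1% of all genes. NCOA4, a receptor coactivator also known as the cargo receptor of ferritin, was at 201 and 186 CPM at 0 h and 426 and 420 CPM at 8 h there (1.13, SE 0.06, adjusted p = 2.66e-09), beside 1.16 for NRIP1. PPARGC1B, a coactivator of mitochondrial programmes, rose from 15.2 and 14.6 to 30 and 29.5 CPM at 4 h (1.00, SE 0.09, adjusted p = 3.21e-06). In T-47D cells no coactivator of this list was called at 2 h by edgeR (5 at an unadjusted p under 0.05, and 0 by DESeq2), 3 rose and 3 fell at 4 h, and 4 rose and 4 fell at 8 h, or 35.3% and 47.1% of the list at the later times beside 21.5% and 29.7% of all genes. There PPARGC1B went from 5.73 and 6.26 to 10.6 and 11.3 CPM at 8 h (0.87, SE 0.12, adjusted p = 2.03e-05), and the acetyltransferase KAT2A from 50.8 and 54.6 to 74.2 and 71.9 CPM (0.47, SE 0.06, adjusted p = 8.18e-06).

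Of 18 other corepressors and partners, 16 passed the filter in each line, and NR0B1 and NR0B2 did not. In Ishikawa cells 2 rose and none fell at 2 h, 2 rose and 1 fell at 4 h, and 4 rose and 1 fell at 8 h, which is 12.5%, 18.8% and 31.2% of those tested, beside 4.35%, 14.3% and 22.1% of all genes. SIN3B, a scaffold of deacetylase complexes, rose there from 86.4 and 101 to 129 and 129 CPM at 2 h (0.47, SE 0.08, adjusted p = 0.00178). In T-47D cells 1 rose and 1 fell at 2 h, 1 rose and 4 fell at 4 h, and 2 rose and 4 fell at 8 h, or 12.5%, 31.2% and 37.5%, beside 9.3%, 21.5% and 29.7%. CORO2A, a component of the NCOR complex, fell from 25.9 and 23.3 to 12.3 and 10.7 CPM at 8 h (-1.09, SE 0.09, adjusted p = 8.82e-08), and TBL1X, another component, from 57.5 and 60 to 47.3 and 46.2 CPM at 4 h (-0.33, SE 0.06, adjusted p = 0.000333). CTBP2, a corepressor that NRIP1 recruits, was called in opposite directions in the lines, which was noticed after the values were seen. At 8 h it was -0.38 in Ishikawa and 0.22 in T-47D cells (log2 fold changes, difference 0.60, SE 0.09, adjusted p = 0.000177). NCOR1, by contrast, lay within 0.04 of 0 on the log2 scale in both lines.

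MED1 is a subunit of Mediator. Of the 31 other subunits, 0 were called at 2 h in Ishikawa cells by edgeR (4 at an unadjusted p under 0.05, and 0 by DESeq2), 2 rose and 2 fell at 4 h, and 5 rose and 4 fell at 8 h. The shares at 4 h and 8 h were 12.9% and 29%, beside 14.3% and 22.1% of all genes. In T-47D cells 1 rose at 2 h, 2 rose at 4 h, and 3 rose and 2 fell at 8 h, or 3.23%, 6.45% and 16.1%, beside 9.3%, 21.5% and 29.7%. MED13L, of the kinase module, rose at 8 h from 91.2 and 89.0 to 113 and 116 CPM in Ishikawa (0.34, SE 0.06, adjusted p = 0.000634) and from 740 and 806 to 948 and 959 CPM in T-47D cells (0.30, SE 0.04, adjusted p = 1.19e-05). Of the same module, CCNC rose in Ishikawa (0.39, SE 0.08, adjusted p = 0.00214) and CDK19 fell in T-47D cells (-0.23, SE 0.07, adjusted p = 0.0245) at 8 h. The median log2 fold change of each list lay between -0.05 and 0.03 in all 6 comparisons.

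**Figure D5:**
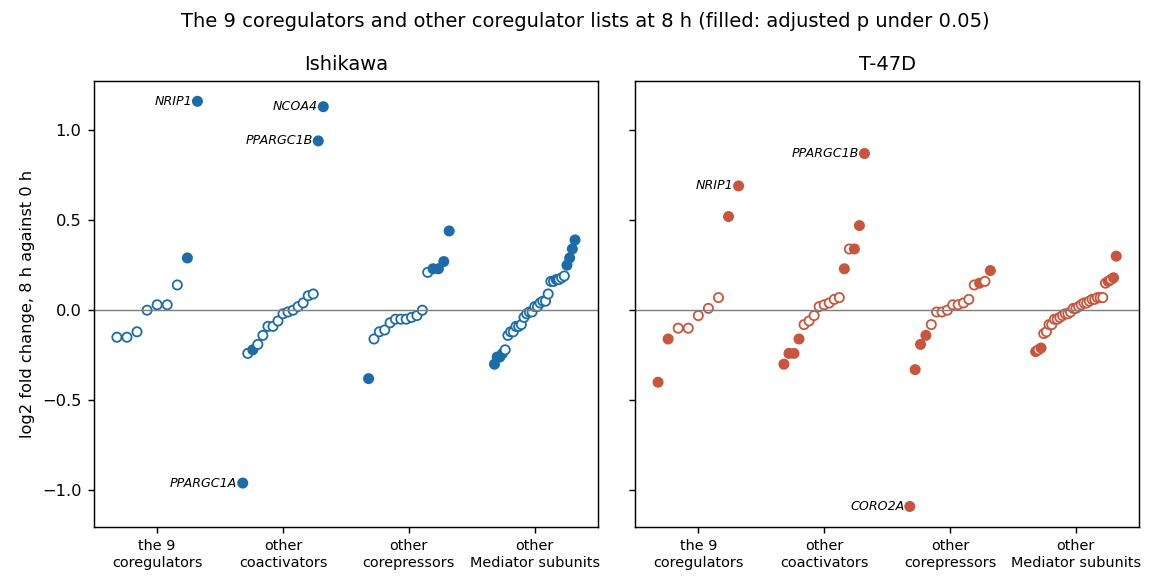
Log2 fold change at 8 h against 0 h (y axis) of the 9 coregulators and of the tested genes of the other coregulator lists, in Ishikawa (left) and T-47D cells (right), ordered by value within a list. Filled points passed an adjusted p of 0.05, and genes beyond 0.6 are named. NRIP1 (1.16) and NCOA4 (1.13) are highest in Ishikawa cells, and CORO2A (-1.09) is lowest in T-47D cells.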

How the data were processed

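Libraries came from poly(A) RNA with a directional kit, per the labels. The authors used HISAT2 on hg19, then SAMtools and featureCounts with UCSC Known Genes, and deposited raw counts per gene, 1 table per cell line. Versions, the strand setting and the treatment of multiply aligned reads are not given in the sources used here. Hormone deprivation lasted 3 days per the labels and longer per the study's methods. Between 71.2% and 74.6% of counts from 1 to 10 were even, and a count may thus not be 1 fragment.

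Samples were grouped by their labels. The counts were analysed with edgeR 4.0.16 in R 4.3.3 (filterByExpr, TMM, quasi-likelihood F-test, Benjamini-Hochberg), with the 8 libraries of a line fitted together over 4 time points (15787 genes tested in Ishikawa, 15594 in T-47D cells), and all 16 for differences between lines (17090 genes). The biological coefficient of variation was 6.45%, 5.02% and 5.82%. The script was tested on simulated data. CPM used TMM sizes, and log2 CPM a prior count of 2. SE was the log2 fold change over the square root of F. Exon lengths and hg19 positions came from GENCODE v44 on GRCh37. With each count taken as a separate fragment, replicates differed by more than sampling noise in each group (chi-square per gene 3.7 to 11.4). Same-numbered replicates did not deviate together (correlations from -0.0838 to 0.0775), so no replicate block was used.

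The members and lists were chosen with earlier results of these data known. Named genes of the lists are the 2 with the largest called change per list and line (mean of at least 50 counts, treated libraries beyond both 0 h libraries), and the 3 genes most like NRIP1 needed a mean of 50 counts per line. GREB1, PGR and ESR1 were checks. A gene that this rule selects is not reported here. The alternatives were DESeq2 1.42.0, RLE scaling, dropping the filter, a minimum of 10 counts in each library, thresholds of 0.01 and 0.1, a replicate block, only the time points compared, 4 h and 8 h as 1 group, each library left out, and the longest transcript as length.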

Additional observations from a re-analysis of the deposited data

Results flagged for a closer look

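The response to E2 differed between the lines, by a test of the difference itself over 16 libraries, for NCOA3 and NRIP1. T-47D minus Ishikawa, on the log2 scale, NCOA3 was -0.27 at 2 h and -0.43 at 8 h, and NRIP1 was -0.41 at 4 h and -0.47 at 8 h. Both 8 h differences passed in all 21 alternative fits, the NRIP1 difference at 4 h in 18 of 21 and the NCOA3 difference at 2 h in 12 of 21. NCOA3 fell in T-47D cells and was not called in Ishikawa cells, whereas NRIP1 rose in both. No group was large enough to look for outlying libraries, since each held 2.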

How the results depend on the processing

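Leaving out each library in turn gave 1008 log2 fold changes or differences of members, of which 900 kept direction and side of the threshold, and the other alternatives gave 540, of which 515 did. A group then left with 1 library is assumed to vary like the other groups. NRIP1 against 0 h stayed called in every alternative, from 0.93 to 1.24 in Ishikawa and from 0.50 to 0.95 in T-47D cells without 1 library, as did NCOA3 in T-47D cells (-0.43 to -0.23). The number of the 9 genes called changed by more than 1.5 times in these cases: in Ishikawa cells at 4 h, from 3 to 1 with only the time points compared or a threshold of 0.01, and at 8 h, from 2 to 4 with 4 h and 8 h as 1 group; in T-47D cells at 4 h, from 4 to 2 at 0.01. For the difference between lines it went from 1 to 0 at 2 h with a replicate block or at 0.01, and at 4 h from 1 to 2 with DESeq2, RLE scaling or at 0.1 and to 0 at 0.01. With the replicate block the all-gene counts were 606, 2044 and 3237 in Ishikawa cells and NCOA2 at 4 h was no longer called (adjusted p = 0.0593), and it changed no other member call against 0 h or at baseline. Without 1 library, members called ranged from 1 to 3 at 4 h and 1 to 4 at 8 h in Ishikawa cells, from 2 to 4 at 4 h and at 8 h in T-47D cells, and for the difference from 0 to 1 at 2 h and 0 to 2 at 4 h.

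The count of all genes called in Ishikawa cells depended on single libraries. At 2 h it was 686, and ranged from 322 (without 2 h replicate 2) to 1735 (without 0 h replicate 1). At 4 h it was 2251, from 1002 (without 4 h replicate 1) to 2995 (without 0 h replicate 1), and at 8 h 3488, from 1409 (without 0 h replicate 2) to 4234 (without 0 h replicate 1). In T-47D cells it was 1450 at 2 h and 816 without 2 h replicate 1, and 3355 at 4 h and 1821 without 4 h replicate 1. The difference at 4 h went from 1031 to 658 without T-47D 4 h replicate 2. In Ishikawa cells, dropping the filter gave 1162 at 2 h, 4 h and 8 h as 1 group gave 4055 against 0 h, and a threshold of 0.1 gave 3386 at 4 h. A threshold of 0.01 left 392, 1076 and 1755 in Ishikawa cells, 901 and 1991 at 2 h and 4 h in T-47D cells, and 533 and 919 for the difference at 4 h and 8 h. The cause of these shifts was not tested, except that thresholds call more or fewer genes by construction.

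Values of members that were not called crossed 0 (log2 scale). Under other settings NCOR1 in Ishikawa cells at 8 h was -0.01 (no filter, or 10 counts in every library) and 0.00 with 4 h and 8 h as 1 group, as NCOA3 was at 4 h. The difference between lines was -0.02 for NCOA7 at 2 h and -0.01 for EP300 at 8 h with DESeq2 or RLE scaling, and for NCOA7 -0.01 with no filter and 0.00 with 10 counts in every library. Without 1 library, the ranges in Ishikawa cells were, at 2 h, -0.15 to 0.02 (CREBBP), -0.01 to 0.10 (MED1), -0.06 to 0.02 (NCOA3) and -0.03 to 0.01 (NCOR1), at 4 h, -0.03 to 0.12 (NCOA1), -0.06 to 0.02 (NCOA3) and -0.03 to 0.01 (NCOR1), and at 8 h, -0.04 to 0.11 (NCOA1), 0.00 to 0.07 (NCOA3) and -0.04 to 0.04 (NCOR1). In T-47D cells they were, at 2 h, -0.09 to 0.04 (CREBBP), -0.09 to 0.01 (EP300) and 0.00 to 0.09 (NCOR1), at 4 h, -0.07 to 0.02 (EP300) and -0.08 to 0.02 (NCOR1), and at 8 h, -0.02 to 0.06 (NCOA1) and -0.07 to 0.03 (NCOR1). For the difference they were, at 2 h, -0.03 to 0.11 (CREBBP), -0.03 to 0.08 (EP300), -0.05 to 0.10 (MED1), -0.13 to 0.05 (NCOA1) and -0.05 to 0.03 (NCOA7), at 4 h, -0.01 to 0.14 (CREBBP), -0.10 to 0.03 (MED1), -0.04 to 0.12 (NCOA1) and -0.07 to 0.03 (NCOR1), and at 8 h, -0.08 to 0.12 (CREBBP), -0.11 to 0.10 (EP300), -0.12 to 0.05 (NCOA1), -0.06 to 0.02 (NCOA2) and -0.10 to 0.01 (NCOR1). Depth limits NCOA7 in T-47D cells most, at 218 to 464 counts per library.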

Other observations

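Over the 16 libraries, centred within each line, log2 CPM of NRIP1 had a Pearson r of -0.71 with NCOA2, -0.60 with EP300, -0.60 with CREBBP, -0.48 with NCOA3, 0.66 with MED1, 0.61 with NCOA7, 0.39 with NCOA1 and -0.03 with NCOR1. The libraries share 4 time points, so these values are descriptions. The ratio of CREBBP to EP300 per kb lay between 0.839 and 0.913 in the Ishikawa libraries and between 0.691 and 0.747 in the T-47D libraries, with no overlap between the lines. PPARGC1A, a coactivator and paralog of PPARGC1B, fell in Ishikawa cells while PPARGC1B rose, from a mean of 6.29 CPM at 0 h to 3.23 CPM at 8 h (log2 fold change -0.96, SE 0.17, adjusted p = 0.00136 by edgeR), and was noticed after its values were seen.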
